A study of Mus musculus with 78 samples.

Results

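The nuclear-encoded subunits of the mitochondrial respiratory chain are described here across 7 brain regions of drinking mice with and without Acss2. The genes were taken by symbol: Nduf followed by a, b, c, s or v and a number (complex I), Sdha to Sdhd (complex II), Uqcr (complex III), Cox4 to Cox8 (complex IV) and Atp5 (complex V). Of the 55367 symbols counted, 88 matched after 13 pseudogene symbols ending in ps were left out, and 81 of them had a mean of 1 CPM or more over the 78 libraries. CPM is a gene's count divided by the library's total count, on the usual 1e6 scale. These 81 genes were 35 of complex I, 4 of complex II, 8 of complex III, 17 of complex IV and 17 of complex V. Ndufa4 and Ndufa4l2 were counted with complex IV, of which NDUFA4 is a subunit in spite of its name. The members just inside the minimum were Ndufa4l2 at 1.43 CPM, Cox4i2 at 1.45 CPM and Cox7a1 at 1.48 CPM. Just outside it were Cox8b at 0.616 CPM and Cox6c2 at 0.611 CPM, and the other 5 symbols left out lay between 0.00 and 0.394 CPM.

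The respiratory chain passes electrons from NADH (complex I) and succinate (complex II) through complex III to oxygen at complex IV, and the proton gradient this builds drives ATP synthesis at complex V. Most subunits are encoded in the nucleus, made in the cytosol and imported, and a small set is encoded by mitochondrial DNA. The nuclear factors NRF1, GABP (an ETS factor) and YY1 are known to bind promoters of many of the nuclear genes. Neurons draw most of their ATP from this pathway.

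All mice were adult, single-housed and on the C57BL/6J strain. KO mice carried a constitutive CRISPR/Cas9 deletion of Acss2 from exon 3 to exon 7, and founders had been backcrossed to the same strain. The ACSS2 protein converts acetate, a product of ethanol breakdown, to acetyl-CoA. WT mice carried the intact gene. Every mouse, KO or WT, had been through the same drinking-in-the-dark procedure, a model of binge-like intake. It had 1 week of habituation and a week in which 15% ethanol and water were offered together, for 2 h on days 1 to 3 and 4 h on day 4. In the second week ethanol was the liquid offered. No ethanol-free group is part of the comparisons. For each sex and genotype there were 3 libraries of both parts of the striatum and both parts of the hippocampus. Amygdala and cortex matched this apart from their female WT groups, which held 2. In prefrontal cortex the KO groups had 3 female libraries and 1 male, and the WT groups 2 of each sex. The libraries come from 12 mice, so libraries of different regions share animals, and the groups of a region are separate mice.

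Depth split the regions into a deeper and a shallower set. The deeper set, 47 libraries from amygdala, dorsal hippocampus and both parts of the striatum, held 4454420 to 14487778 counts each. The shallower set, 31 from cortex, prefrontal cortex and ventral hippocampus, held 629635 to 1228828. Library numbers in the labels also restart between these sets, so regions were tested only within a set. Acss2 was at 0.971 to 13.96 CPM in the 40 KO libraries and at 35.9 to 73.8 CPM in the 38 WT libraries, with no overlap. One library was labelled female WT prefrontal cortex of mouse 23. Against its label, it had Xist at 0 CPM and the Y-linked gene Ddx3y at 73.4 CPM. The counts of members called in prefrontal cortex are given with and without it. The region's module mean, counts by complex, most single-gene values and the other gene lists there are given only with it. Each of the 10 neuronal markers was present in every region, and their summed level was 5964 to 12878 CPM. In whole tissue, fewer cells of a type and less RNA per cell cannot be told apart.

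What the members share was looked at first in their promoters, since the nuclear factors above act there. Promoter windows from RefSeq (GRCm38.p6, 250 bases before to 50 after a gene's start) were found for 66 of the 81 members, in 71 windows. On either strand, the NRF1 motif GCGCANGCG was in 29.6% of the member windows and in 6.25% of all 32851 windows. The ETS motif CCGGAAG was in 23.9% and 8.86%, and the YY1 motif AAGATGGC in 14.1% and 2.75%. Any of the 3 was in 56.3% of member windows against 15.96% of all windows, and 2 or more kinds in 11.3% against 1.83%. No member window had matches of 2 kinds that overlapped. Member windows were also richer in GC (median 57.7% against 52.7%) and held a median of 19 CpG dinucleotides against 7 over all windows. A match describes the letters in the window and is not a bound site.

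Among members with a single window, the 3 with the most kinds of motif and then the most matches are shown, with that of Atp5g2, which among members whose window held a motif varied least with the other members. Sequences run 5′ to 3′ on the gene's strand with motif letters in capitals. They show how the matches sit relative to the start, which follows base 250. The windows are those of Cox6a1, a subunit at the rim of cytochrome c oxidase (chr5:115348909-115349208, minus strand), Atp5k, subunit e of ATP synthase (chr5:108434350-108434649, minus strand), Atp5l, subunit g (chr9:44920693-44920992, minus strand), and Atp5g2, a gene for subunit c (chr15:102670998-102671297, minus strand). The palindrome GCGCATGCGC in Cox6a1, Atp5k and Atp5g2 reads as the NRF1 motif on both strands, and Cox6a1 holds a further NRF1 match. Cox6a1 and Atp5k each have 1 ETS match and Atp5l has 2, printed as CTTCCGG because they lie on the other strand.
Cox6a1: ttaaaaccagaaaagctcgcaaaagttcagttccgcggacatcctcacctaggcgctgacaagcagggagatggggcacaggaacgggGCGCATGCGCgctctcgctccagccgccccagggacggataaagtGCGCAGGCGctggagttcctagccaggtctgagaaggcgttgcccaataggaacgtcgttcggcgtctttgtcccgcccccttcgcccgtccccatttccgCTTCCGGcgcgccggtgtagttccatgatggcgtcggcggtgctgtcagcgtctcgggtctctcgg
Atp5k: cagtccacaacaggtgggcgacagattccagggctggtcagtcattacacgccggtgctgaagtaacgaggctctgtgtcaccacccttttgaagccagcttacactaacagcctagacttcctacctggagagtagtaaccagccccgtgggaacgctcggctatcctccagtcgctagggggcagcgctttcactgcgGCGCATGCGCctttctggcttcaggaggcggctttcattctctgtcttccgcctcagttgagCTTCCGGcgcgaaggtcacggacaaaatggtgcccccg
Atp5l: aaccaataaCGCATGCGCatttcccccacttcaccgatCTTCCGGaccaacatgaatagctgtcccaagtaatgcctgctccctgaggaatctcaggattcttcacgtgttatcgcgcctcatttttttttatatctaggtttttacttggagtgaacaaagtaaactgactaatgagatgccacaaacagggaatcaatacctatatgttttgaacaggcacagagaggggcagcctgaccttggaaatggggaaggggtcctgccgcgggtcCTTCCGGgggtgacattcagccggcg
Atp5g2: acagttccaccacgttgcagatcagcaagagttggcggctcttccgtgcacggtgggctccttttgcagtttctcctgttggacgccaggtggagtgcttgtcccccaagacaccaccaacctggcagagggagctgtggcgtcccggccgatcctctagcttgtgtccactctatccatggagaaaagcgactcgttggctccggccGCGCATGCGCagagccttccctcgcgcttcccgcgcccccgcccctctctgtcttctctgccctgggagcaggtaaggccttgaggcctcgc

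Summed over the 81 genes, members made up 0.793% to 1.46% of counts per library, with a median of 1.07%. The median share was 0.283% for complex I, 0.0800% for complex II, 0.0988% for complex III, 0.210% for complex IV and 0.381% for complex V. Levels of different genes were compared only per kilobase of exonic length. Per kilobase, the highest members were Cox8a (402 CPM per kb) and Cox4i1 (380 CPM per kb) of complex IV and Atp5b, the catalytic beta subunit of complex V (308 CPM per kb). In complex I the range ran from Ndufb2 (3.32 CPM per kb) to Ndufa1 (128 CPM per kb), with a median of 52.9. Complex III ran from Uqcrq at 50.3 to Uqcr10 at 124 CPM per kb. The lowest of complex V was Atp5l at 3.12 CPM per kb. Exonic length counts the exons of all annotated transcripts, for Atp5l 6443 bases against 544 in its longest transcript. The order of genes per kilobase thus depends in part on the annotation. Of the longest Atp5l transcript, 57.4% has a near-identical copy in other genes. In all, 17 members have such a copy (97% identity over 75 bases or more) and 11 over more than 30% of the transcript, among them Ndufb4, Ndufa12, Uqcrb and Cox7c, so their counts may be split or shared. Exons of 26 members overlap an exon of a gene on the opposite strand, and the counting is not stated to use strand. The members were short, with a median exonic length of 1559.5 bases against 4419 for all 14907 symbols of 1 CPM or more.

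The module mean, the mean over members of log2(CPM + 1), differed between regions. In the shallower set it was highest in cortex (6.51 ± 0.17, SD, n = 11), then ventral hippocampus (6.38 ± 0.09, n = 12), and lowest in prefrontal cortex (5.93 ± 0.16, n = 8). The cortex libraries ran from 6.22 to 6.77 and the prefrontal libraries from 5.71 to 6.15, so these groups did not overlap. Ventral hippocampus, at 6.28 to 6.61, overlapped cortex and lay wholly above prefrontal cortex. In the deeper set the means lay close together: 6.21 ± 0.24 in dorsal hippocampus (n = 12), 6.14 ± 0.24 in dorsal striatum (n = 12), 6.13 ± 0.20 in amygdala (n = 11) and 6.03 ± 0.16 in ventral striatum (n = 12). All 4 overlapped, and neighbours in that order did not differ beyond their spread. Across the 40 KO libraries the mean was 6.21 ± 0.27 and across the 38 WT libraries 6.19 ± 0.24.

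**Figure D1:**
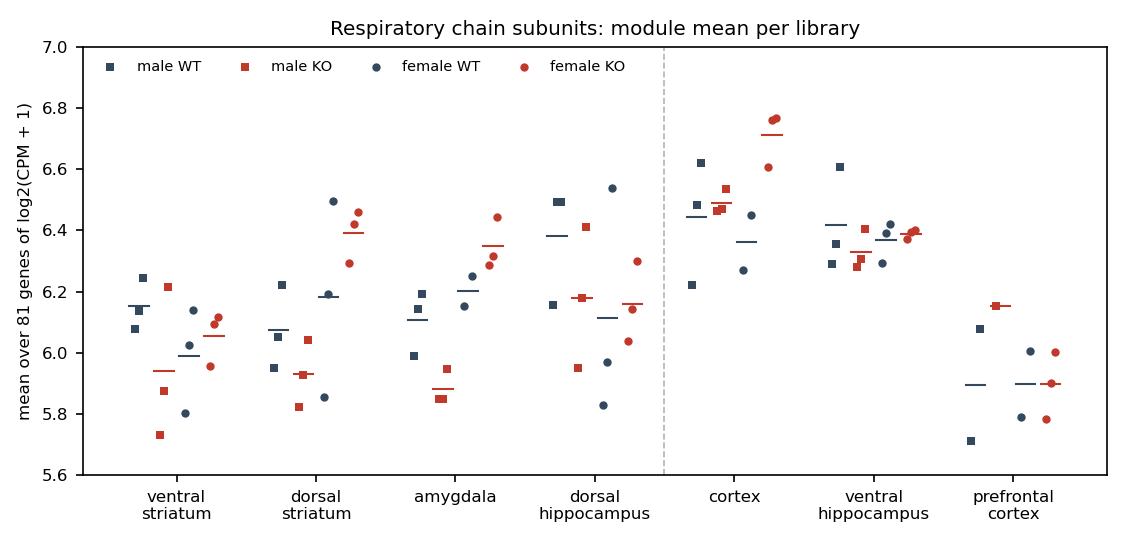
Mean of log2(CPM + 1) over the 81 subunit genes in each library, by region, with squares for males, circles for females, red for KO and dark blue for WT, and short lines for group means. The dashed line separates the deeper set (left) from the shallower one; within the shallower set, prefrontal cortex lies at 5.71 to 6.15, below all cortex libraries at 6.22 to 6.77.

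Cortex had higher subunit mRNA than the mean of ventral hippocampus and prefrontal cortex across all 5 complexes. Of the 76 members tested, 67 were higher and 0 lower at an adjusted p under 0.05 (edgeR's quasi-likelihood test, Benjamini-Hochberg over all genes tested), where 19.4% of all 11195 genes were called higher and 18% lower. By complex, 29 of 35 genes of complex I, 3 of 4 of complex II, 8 of 8 of complex III, 12 of 12 of complex IV and 15 of 17 of complex V were higher. The median member differed by 0.44 on the log2 scale and the median of all genes by -0.01. The largest differences were in Atp5mpl, a small membrane subunit of ATP synthase, and Cox7b, an X-linked subunit of complex IV. Atp5mpl was at 75.5 CPM in the lowest, 90.4 in the median and 110 in the highest cortex library, against 28.1, 40.2 and 52.7 in prefrontal cortex, with no overlap. Its log2 difference of cortex from the other regions was 0.84 ± 0.10 (SE, adjusted p = 1.6e-08, edgeR). Cox7b was at 136 to 209 CPM in cortex (median 174), 115 to 210 CPM in ventral hippocampus and 58.5 to 92.9 CPM in prefrontal cortex. Its log2 difference in cortex was 0.78 ± 0.08 (adjusted p = 6.0e-09, edgeR), and the prefrontal libraries lay below every library of the other regions of the set.

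Prefrontal cortex was the reverse. Of 76 members, 72 were lower and 0 higher than the mean of cortex and ventral hippocampus, with 17.2% of all genes called lower and 18.1% higher. The median member differed by -0.59 on the log2 scale. All 8 tested genes of complex III and all 12 of complex IV were lower, with 33 of 35 of complex I, 3 of 4 of complex II and 16 of 17 of complex V. Ndufb4, an accessory subunit of the complex I membrane arm, had the largest difference, -1.28 ± 0.20 (adjusted p = 1.0e-05, edgeR). It was at 2.44 to 13.8 CPM (median 6.80) in prefrontal cortex, and at 9.04 to 20.5 CPM in cortex, which overlap. Its lowest prefrontal libraries, at 2.44 and 2.45 CPM, held no more than 3 counts. Of its longest transcript, 40.2% has a copy elsewhere. Cox7b followed at -1.21 ± 0.10 (adjusted p = 5.1e-10, edgeR). Without the prefrontal library of mouse 23, Cox7b had the largest difference, -1.22, with Ndufb4 next. The 4 members that did not pass were Ndufa13 (-0.26, adjusted p = 0.054), Ndufv1, the NADH-binding subunit (-0.12, 0.19), Atp5g2 (-0.49, 0.13) and Sdha (0.05, 0.47, all edgeR). Without the prefrontal library of mouse 23, 73 members were lower in prefrontal cortex and 66 higher in cortex. These 2 contrasts share all 31 libraries, so their opposite signs are not separate results.

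Ventral hippocampus lay between them. There 17 of 76 members were higher and 0 lower, against 13% of all genes higher and 12.9% lower, with a median member difference of 0.14. Ndufb4 (0.63 ± 0.17, adjusted p = 0.0046) and Ndufa12, an accessory subunit of the NADH-binding arm (0.55 ± 0.09, adjusted p = 1.1e-05, both edgeR), differed most. Ndufa12 was at 64.8 to 91.6 CPM in ventral hippocampus (median 81.5), 57.2 to 89.7 CPM in cortex and 26.4 to 49.2 CPM in prefrontal cortex. The cortex and ventral hippocampus overlapped, and the prefrontal cortex was below both.

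Other short or abundant genes moved with the members between these 3 regions. Of 79 cytosolic ribosomal protein genes, 55 were higher and 1 lower in cortex, and 74 were lower and 0 higher in prefrontal cortex. Ribosomal protein means of log2(CPM + 1) were 6.46 ± 0.18 in cortex, 6.47 ± 0.17 in ventral hippocampus and 5.98 ± 0.21 in prefrontal cortex. With offsets that removed each library's trend with exonic length and GC content, 46 members were higher in cortex and 51 lower in prefrontal cortex, and the median difference was 0.25 in cortex and -0.32 in prefrontal cortex. Of 10 neuronal markers, 6 were higher and 1 lower in cortex, while in prefrontal cortex 2 were higher and 5 lower. Of 6 markers of smooth muscle and meninges tested, 4 were lower and 0 higher in cortex and 4 higher and 0 lower in prefrontal cortex. Their mean log2 level was 2.76 ± 0.42 in cortex, 3.41 ± 0.80 in ventral hippocampus and 4.02 ± 0.80 in prefrontal cortex. The part of cell makeup in the region differences was not tested. 

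**Figure D2:**
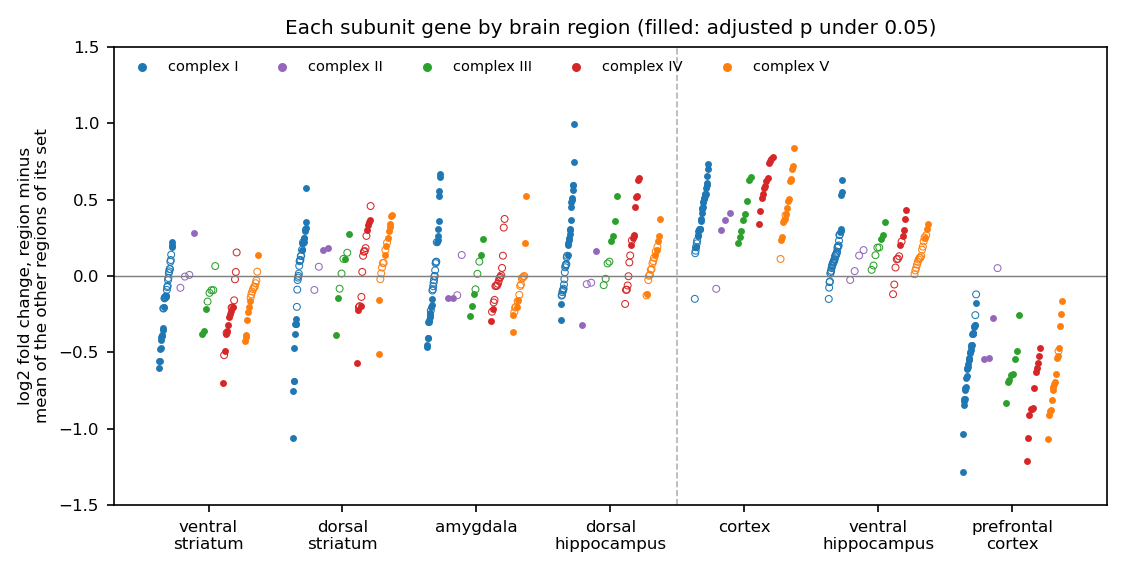
Log2 fold change of each subunit gene between a region and the mean of the other regions of its set, coloured by complex, filled where the adjusted p was under 0.05. All filled points are above 0 in cortex (67 genes) and ventral hippocampus (17) and below 0 in prefrontal cortex (72), while the 4 regions left of the dashed line have filled points on both sides.

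In the deeper set every region had members called in both directions. Those called were mostly higher in dorsal hippocampus, mostly lower in ventral striatum, and more mixed in dorsal striatum and amygdala. Dorsal hippocampus had 37 of 81 members higher and 4 lower, against 26.4% of 15140 genes higher and 25.5% lower. Dorsal striatum had 27 higher and 17 lower, against 24.4% and 24.2% of all genes. Amygdala had 13 higher and 24 lower, against 25.3% and 23.5%. Ventral striatum had 5 higher and 32 lower, against 20.8% and 20.3%. Without mouse 10, 8 members were lower in dorsal hippocampus. As each mouse was left out, 25 to 40 members were higher and 3 to 8 lower in dorsal hippocampus. In dorsal striatum 21 to 35 were then higher and 13 to 19 lower.

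Ndufa13, an accessory subunit of complex I also known as GRIM-19, separated striatum from the other regions of this set. It was at 28.03 to 65.1 CPM in dorsal striatum (median 39.01) and 30.3 to 75.8 CPM in ventral striatum (median 52.7). Amygdala ranged from 77.4 to 123 CPM (median 106) and dorsal hippocampus from 87.8 to 151 CPM (median 110). No striatal library reached the lowest library of amygdala or hippocampus. Log2 differences from the other regions were -1.06 ± 0.11 in dorsal striatum (adjusted p = 1.2e-10), -0.61 ± 0.10 in ventral striatum (1.1e-05), 0.67 ± 0.10 in amygdala (4.8e-07) and 1.00 ± 0.09 in dorsal hippocampus (6.4e-12, all edgeR). The gene lies on GRCm38 chromosome 8 from 69894180 to 69902558, and 375 of its 1251 exonic bases overlap Tssk6 on the opposite strand, which averaged 0.0974 CPM.

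Ndufs7, a core iron-sulfur subunit of complex I, had the same order. It was at 27.7 to 43.2 CPM in dorsal striatum, 29.2 to 50.9 CPM in ventral striatum, 51.2 to 81.2 CPM in amygdala and 53.9 to 87.4 CPM in dorsal hippocampus, with no overlap between striatum and the other 2 regions. Its log2 differences were -0.75 ± 0.08 in dorsal striatum and 0.75 ± 0.07 in dorsal hippocampus (adjusted p = 1.6e-10 and 4.9e-12, edgeR). Ndufb6, an accessory subunit of the membrane arm, was at 19.3 to 40.9 CPM in dorsal striatum and 46.5 to 68.6 CPM in amygdala, where its difference was 0.65 ± 0.09 (adjusted p = 9.8e-08, edgeR). In dorsal striatum complex I was thus not shifted as a whole, since 11 of its 35 genes were higher and 10 lower.

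Other subunits ran the opposite way. Sdha, the flavoprotein of complex II that oxidises succinate, was highest in ventral striatum, at 546 to 811 CPM (median 642). It was at 559 to 632 CPM in dorsal striatum, 462 to 601 CPM in amygdala and 390 to 514 CPM in dorsal hippocampus, so ventral striatum lay above every dorsal hippocampus library and overlapped amygdala. Its log2 difference was 0.28 ± 0.04 in ventral striatum (adjusted p = 2.1e-07) and -0.32 ± 0.04 in dorsal hippocampus (5.7e-09, edgeR). Ndufs1, the largest core subunit of complex I, was at 183 to 258 CPM in ventral striatum and 151 to 180 CPM in dorsal hippocampus, with no overlap, and its ventral striatum difference was 0.22 ± 0.04 (adjusted p = 5.6e-06, edgeR). Ndufa9, an NAD(P)-binding accessory subunit, was lower in dorsal hippocampus by -0.29 ± 0.05 (adjusted p = 5.7e-06, edgeR), at 92.6 to 139 CPM against 132 to 178 CPM in dorsal striatum.

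In dorsal striatum Ndufa1, an X-linked membrane-arm subunit, was higher by 0.58 ± 0.09 (adjusted p = 2.2e-06) and Atp5e, the epsilon subunit of ATP synthase, by 0.40 ± 0.12 (0.0063, edgeR). Ndufa1 was at 39.3 to 97.5 CPM there (median 66.2) and at 30.2 to 67.7 CPM in amygdala (median 39.4), with overlap. In amygdala Ndufb3 (-0.46 ± 0.08, adjusted p = 1.2e-05) and Ndufa3 (-0.45 ± 0.09, adjusted p = 7.7e-05, edgeR), both accessory subunits, were lowest. Ndufb3 was at 48.6 to 73.1 CPM in amygdala and 61.6 to 119 CPM in ventral striatum, which overlap.

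**Figure D3:**
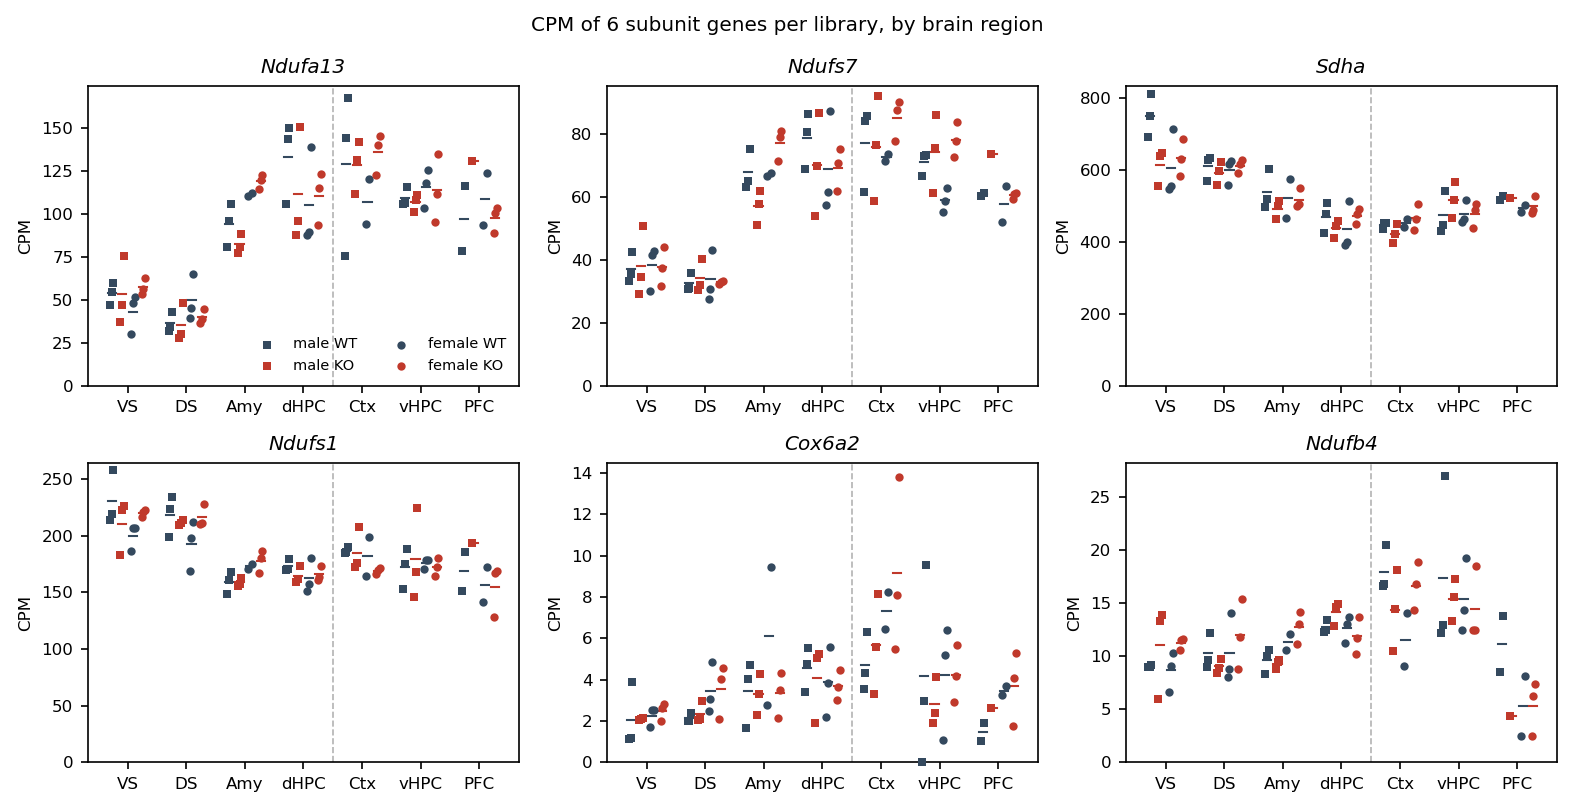
CPM of 6 subunit genes in every library by region (VS, ventral striatum; DS, dorsal striatum; Amy, amygdala; dHPC, dorsal hippocampus; Ctx, cortex; vHPC, ventral hippocampus; PFC, prefrontal cortex), with symbols as in the plot of module means and lines for group means. Ndufa13 and Ndufs7 are low in every striatal library, Sdha and Ndufs1 run the other way, and Ndufb4 is low in prefrontal cortex.

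Length and GC content went with part of these differences. Across the 80 members with a length, the log2 difference in ventral striatum correlated with log2 exonic length at r = 0.36 and with GC content at r = -0.24. In dorsal hippocampus these were -0.26 and 0.34. Dorsal striatum and amygdala had r of 0.04 and -0.08 with length, and of -0.42 and 0.38 with GC. The values are across genes that share libraries. Members lower in dorsal striatum had a median GC content of 55.3% and those higher 49.5%. With offsets for length and GC, ventral striatum had 13 members higher and 22 lower and dorsal hippocampus 30 higher and 14 lower, so the share higher of those called moved from 13.5% to 37.1% and from 90.2% to 68.2%. Ndufa13 kept its direction and call in all 4 regions with these offsets, at -0.67 in dorsal striatum and 0.63 in dorsal hippocampus. Oligodendrocyte markers differed between these regions too: 11 of 11 were higher in dorsal striatum and 11 of 11 lower in amygdala. Their summed levels were 5051 to 19232 and 1117 to 11226 CPM. Their mean log2 level was 8.65 ± 0.59 in dorsal striatum, 8.06 ± 0.49 in ventral striatum, 7.71 ± 0.74 in dorsal hippocampus and 7.02 ± 1.04 in amygdala. The part of oligodendrocyte content in the region differences was not tested.

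Complex II is encoded wholly in the nucleus. Sdhb, the iron-sulfur subunit, Sdhc and Sdhd, the membrane anchors, were each higher in cortex (0.30 ± 0.07, 0.37 ± 0.09 and 0.41 ± 0.08) and lower in prefrontal cortex (-0.28 ± 0.08, -0.54 ± 0.10 and -0.54 ± 0.09), with adjusted p of 0.0083 at most (edgeR). Sdha was not called in any region of that set. It was at 396 to 504 CPM in cortex, 430 to 567 CPM in ventral hippocampus and 479 to 527 CPM in prefrontal cortex, with overlap throughout, and its prefrontal difference was 0.05 ± 0.05 (adjusted p = 0.47, edgeR).

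Complex IV subunits with a second, tissue-restricted gene were carried by the ubiquitous form in every region. Cox4i1 averaged 589 CPM (380 CPM per kb) and Cox4i2 1.45 CPM (1.84 per kb). Cox6a1 averaged 279 CPM per kb and Cox6a2, the heart and muscle form, 5.58. Cox6b1 averaged 228 CPM per kb and Cox6b2, the testis form, 2.29. Cox7a2 averaged 116 CPM per kb and Cox7a1, the heart and muscle form, 2.77, while Cox7a2l averaged 55.0. Ndufa4 averaged 141 CPM per kb and Ndufa4l2 1.30. Cox7b2 (0.333 CPM per kb) and Cox8b (1.71 CPM per kb) were under the CPM minimum, and Cox8c was at 0 in all 78 libraries, which allows up to 0.207 to 0.673 CPM per library in the deeper set and 2.44 to 4.76 CPM in the shallower one (3 counts, counting error only). Of the rare forms, Cox6a2 was lower in ventral striatum (-0.70 ± 0.20, adjusted p = 0.0042, edgeR), at 1.15 to 3.87 CPM against 1.90 to 5.58 CPM in dorsal hippocampus, with overlap. Cox6a1 was also lower there (-0.49 ± 0.09, adjusted p = 2.4e-05, edgeR) and higher in dorsal hippocampus (0.65 ± 0.08, adjusted p = 1.6e-08, edgeR).

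Cox6b2 and Cox8b followed markers of the choroid plexus from library to library. Over the 47 deeper libraries, and as deviations from the region mean, the correlation with the mean of 8 choroid plexus markers was 0.88 for Cox6b2, 0.90 for Cox8b and 0.60 for Cox7a1, and 0.04 for Cox4i2, 0.07 for Ndufa4l2 and 0.14 for Cox6a2. Cox6b2 also correlated with oligodendrocyte (0.70) and astrocyte (0.64) markers, and Cox7a1 with astrocyte markers (0.61). Cox7a1 further correlated at 0.64 with the mean of Pvalb, Kcnc1, Kcnc2, Gad1, Gad2 and Tac1, a list not particular to parvalbumin interneurons. The 4 libraries with the highest Cox8b were also the 4 with the highest choroid plexus mean. They were 2 female KO amygdala libraries, at 9.95 CPM (mouse 5) and 5.87 CPM (mouse 4), and 2 female KO dorsal striatum libraries, at 3.79 CPM (mouse 6) and 3.603 CPM (mouse 5). Ttr, which encodes transthyretin of the choroid plexus, was at 5143 to 8637 CPM in these 4 libraries. The genes were picked for this after their values were seen, and rest on 1000 counts of Cox6b2 and 293 of Cox8b over the 47 libraries. In the KO comparisons that hold these 4 libraries, Cox6b2 had log2 differences of 1.53 in female amygdala and 1.68 in female dorsal striatum. Neither was called (adjusted p = 0.98 and 0.92, edgeR), and the part of choroid plexus in them was not tested.

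Subunit c of ATP synthase, which forms the rotating ring, is made from 3 genes whose products differ only in the import signal. Atp5g3 had the highest level per length (107 CPM per kb), then Atp5g1 (15.6) and Atp5g2 (5.12). Atp5g3 was lower in ventral striatum (-0.23 ± 0.06, adjusted p = 0.0017) and dorsal striatum (-0.16 ± 0.06, 0.028) and higher in amygdala (0.22 ± 0.06, 0.0025) and dorsal hippocampus (0.17 ± 0.06, 0.013, edgeR). Atp5g1 was lower in ventral striatum (-0.20 ± 0.07, adjusted p = 0.021) and higher in dorsal hippocampus (0.23 ± 0.07, 0.0056, edgeR). Both were higher in cortex and lower in prefrontal cortex, and Atp5g2 was called in none of the 7 regions. Near-identical stretches elsewhere cover 13.2% of the longest Atp5g1 transcript and 16.9% of that of Atp5g2.

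No member was called between KO and WT in any region. Within sex, 0 members were called in each of 13 comparisons. The share of all genes called in males was 0% in ventral and in dorsal striatum, 0.00706% in amygdala, 0.00721% in dorsal hippocampus, 0.0103% in cortex and 0.00996% in ventral hippocampus. In females it was 0% in ventral striatum, dorsal striatum and amygdala, 0.00707% in dorsal hippocampus, 0.0398% in cortex, 0.00993% in ventral hippocampus and 0.452% in prefrontal cortex. Over both sexes 0 members were called in each of 7 regions, against 0.00675% of all genes in amygdala, 0.00977% in cortex, 0.00702% in dorsal hippocampus and in dorsal striatum, 0.0973% in prefrontal cortex, 0.00951% in ventral hippocampus and 0.00721% in ventral striatum. The KO effect did not differ between the sexes for any member in any of 6 regions, nor for any other gene (0% called in each). These counts are from edgeR's quasi-likelihood test, and DESeq2 also called 0 members in each of these comparisons. A p that misses the threshold does not show that the groups are alike. Where 0% of genes were called within sex, Acss2 itself was not called. In female amygdala, for example, Acss2 was at 5.61 to 8.64 CPM in KO and 42.3 and 64.9 CPM in WT. On simulated data the male amygdala test called 0 of 100 genes changed by 0.5 on the log2 scale and 27 of 100 changed by 1. The amygdala test over both sexes called 20 and 74. The changed genes were drawn at random from all genes fitted and simulated to vary independently, whereas the members vary together. These rates are therefore not rates for the members. Without the library of mouse 23, 0 members were called in prefrontal cortex in females or over both sexes, against 2.71% and 0.67% of all genes; the female WT group is then 1 library, assumed to vary like the others. At an unadjusted p under 0.05, 23 members passed in male amygdala and 33 in female cortex. In each other comparison within sex 0 to 3 members passed, where 1.91% to 9.84% of all genes did. Over both sexes 14 of 76 passed in cortex, all higher, against 3.13% of all genes higher there, and 0 to 2 in each other region, where 1.59% to 8.58% of all genes did.

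The member with the smallest p over both sexes is given for each region as not called. In cortex it was Ndufb8, a complex I accessory subunit, at 86.5 to 128 CPM in KO (median 99.8, n = 6) and 60.4 to 85.8 CPM in WT (median 72.3, n = 5), with no overlap. Its log2 difference was 0.47 ± 0.13 (adjusted p = 0.74, edgeR). In ventral striatum it was Ndufa12, at 61.4 to 88.6 CPM in KO and 88.2 to 106 CPM in WT, with a log2 difference of -0.35 ± 0.09 (adjusted p = 0.65, edgeR). The lowest male WT library there was at 97.5 CPM and the highest male KO at 76.5 CPM, while the female groups overlapped. In prefrontal cortex it was Ndufa5 (0.62 ± 0.22, adjusted p = 0.38, and 0.68 with adjusted p = 0.35 without the library of mouse 23), in ventral hippocampus Uqcrc2, a core protein of complex III (-0.21 ± 0.09, adjusted p = 0.97), and in amygdala Ndufs4 (-0.18 ± 0.08, adjusted p = 0.99, all edgeR). In dorsal striatum and dorsal hippocampus it was Cox7a1, at 0.85 ± 0.34 and -0.81 ± 0.41 (adjusted p = 1.00 in both, edgeR), from a gene at 0.311 to 4.02 CPM. Its highest dorsal striatum libraries, female KO mouse 5 (4.02 CPM) and mouse 6 (3.31 CPM), also had the highest choroid plexus means of that region, 6.46 and 6.53, and the part of this in the difference was not tested.

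In several comparisons most members lay on 1 side of 0. Median member differences of KO from WT in males were -0.19 in ventral striatum, -0.10 in dorsal striatum, -0.20 in amygdala, -0.15 in dorsal hippocampus, 0.03 in cortex and -0.11 in ventral hippocampus. In females they were 0.03, 0.19, 0.10, 0.02, 0.36 and 0.07 in the same order, and -0.03 in prefrontal cortex (-0.11 without the library of mouse 23). As each mouse was left out, the median ranged from -0.23 to -0.17 in male amygdala, 0.25 to 0.44 in female cortex, -0.35 to -0.12 in male ventral striatum, -0.27 to -0.057 in male dorsal hippocampus, -0.21 to -0.056 in male ventral hippocampus, 0.045 to 0.17 in female amygdala and 0.067 to 0.34 in female dorsal striatum. It reached -0.0009 in male dorsal striatum. It changed sign in male cortex (-0.075 to 0.14) and in female dorsal hippocampus (-0.086 to 0.22), ventral striatum (-0.022 to 0.13) and prefrontal cortex (-0.11 to 0.059). Medians over all genes tested lay between -0.03 and 0.02. The median of the female minus male difference ranged from 0.15 in dorsal hippocampus to 0.33 in amygdala. No p is given for such medians, since members share libraries and vary together.

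**Figure D4:**
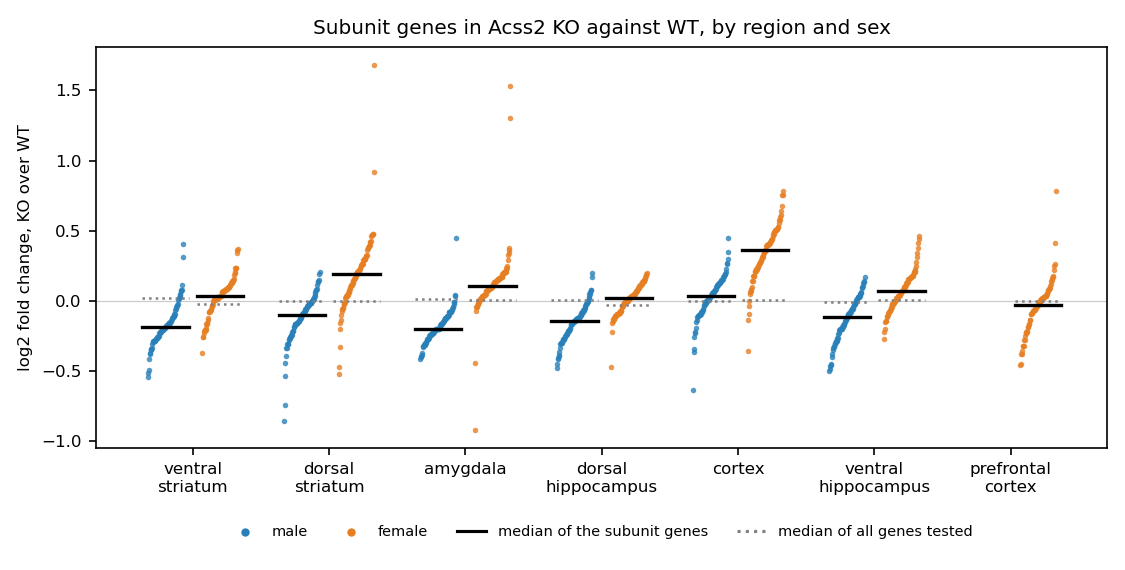
Log2 fold change of KO over WT for each subunit gene, by region and sex, with the median of the subunit genes as a black line and that of all genes tested as a dotted grey line. No gene was called; the medians run from -0.20 in male amygdala to 0.36 in female cortex, and male prefrontal cortex (1 KO library) was not tested.

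Male amygdala and female cortex had the most members at an unadjusted p under 0.05. In male amygdala 23 of 79 members were lower at that level and 0 higher, against 1.79% of all genes lower. The module mean was 5.95, 5.85 and 5.85 in the KO libraries of mice 1, 2 and 10 and 6.14, 6.19 and 5.99 in the WT libraries of mice 3, 12 and 13, with no overlap. Cox7b, for example, was at 70.4, 69.5 and 67.2 CPM in KO and 101, 99.4 and 81.7 CPM in WT (-0.40 ± 0.10, adjusted p = 0.90, edgeR). In female cortex 33 of 76 members were higher at that level and 0 lower, against 5.26% of all genes higher. The module mean was 6.77, 6.61 and 6.76 in the KO libraries of mice 4, 5 and 6 and 6.27 and 6.45 in the WT libraries of mice 11 and 24. Ndufc2, a complex I accessory subunit picked after its values were seen, was at 173, 146 and 165 CPM in KO and 101 and 102 CPM in WT (0.68 ± 0.17, adjusted p = 0.16, edgeR). Male cortex did not share this lean, with module means of 6.47 to 6.54 in KO and 6.22 to 6.62 in WT.

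Library properties moved with both leans. In male amygdala the slope of log2 CPM on log2 exonic length was 0.045 to 0.081 in KO and -0.036 to 0.019 in WT, and in female cortex -0.094 to -0.059 in KO and 0.059 to 0.063 in WT. Neither pair overlapped. Ribosomal protein genes leaned the same way, with a median of -0.25 over 80 genes in male amygdala and 0.40 over 78 in female cortex. Astrocyte markers were lower in the male amygdala KO libraries (mean log2 level 7.20 to 7.51 against 7.53 to 8.01). Choroid plexus and microglial markers were higher in the female cortex KO libraries (1.18 to 3.42 against 0.39 to 0.90, and 4.80 to 5.10 against 4.77). The part of these in the leans was not tested. With offsets for length and GC, the median member difference was -0.11 in male amygdala and 0.12 in female cortex.

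In female amygdala the module mean was 6.32, 6.44 and 6.29 in the KO libraries and 6.25 and 6.15 in the WT libraries. This difference of 0.15 was opposite to the -0.23 of males and again without overlap. The mean log2 level of choroid plexus markers was 6.50, 6.88 and 2.48 in the KO libraries of mice 4, 5 and 6. It was 3.10 and 3.67 in the WT libraries of mice 23 and 24, and its part was not tested. The female minus male difference was positive for 76 of 81 members, and 32 had an unadjusted p under 0.05 in that direction, against 2.81% of all genes. None was called (lowest adjusted p among the members 0.88, edgeR).

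Between the sexes 0 members were called in any of 7 regions by edgeR, against 0.0405% of all genes in amygdala, 0.0879% in cortex, 0.0421% in dorsal hippocampus, 0.0492% in dorsal striatum, 0.0442% in prefrontal cortex, 0.0476% in ventral hippocampus and 0.0432% in ventral striatum. Females were nonetheless higher at an unadjusted p under 0.05 in 65 of 81 members in amygdala, against 9.86% of all genes, and in 42 of 80 in dorsal striatum, against 4.73%. DESeq2 called 32 members higher in female amygdala, against 2.52% of all genes, and 1 in dorsal striatum. Without mouse 12, edgeR called 4 members in amygdala. In amygdala the mean log2 level of choroid plexus markers was 2.48 to 6.88 in the 5 female and 1.13 to 2.13 in the 6 male libraries, with no overlap. The length slope there was -0.050 to -0.017 in females and -0.036 to 0.081 in males. The part of these in the differences was not tested. Sex and deposited table are the same split and cannot be told apart. In prefrontal cortex 0 members were called without the library of mouse 23, against 0.115% of all genes. Among the 3 X-linked members, in amygdala Ndufa1 was at 0.53 ± 0.13, Ndufb11 at 0.42 ± 0.11 and Cox7b at 0.43 ± 0.14, none called (adjusted p = 0.12, 0.12 and 0.17, edgeR), where the median of all members was 0.30. In cortex they were at -0.18, -0.03 and 0.07.

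Within groups the members varied together from library to library. Over 77 libraries, as deviations from the group mean, a member correlated with the mean of the other 80 at a median r of 0.72. Of the 75 members of 10 CPM or more, 67 had r over 0.5. Cox4i1 (0.92), Atp5e (0.89) and Uqcrh, the hinge protein of complex III (0.89), were the closest to the rest. Ndufa4l2 (0.02), Ndufs1 (0.06) and Cox6a2 (0.13) were the farthest, of which Ndufs1 is abundant at 184 CPM and has 8086 exonic bases. Complex means followed each other, at 0.95 for complexes I and V, 0.94 for I and III and 0.67 for II and IV. The module mean deviated by 0.13 (SD) within groups. Its deviation correlated at 0.86 with that of the ribosomal protein genes, at -0.87 with the length slope, at 0.44 with mitochondrially encoded mRNAs and at -0.15 with neuronal markers. With the other lists it was 0.50 for red blood cells, 0.49 for microglia, 0.39 for astrocytes, 0.35 for oligodendrocytes and 0.34 for choroid plexus. It was 0.31 for endothelium and pericytes, 0.30 for smooth muscle and meninges, and 0.41 for the list with Pvalb, Gad1 and Tac1. The libraries share mice and preparation, so these are descriptions.

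**Figure D5:**
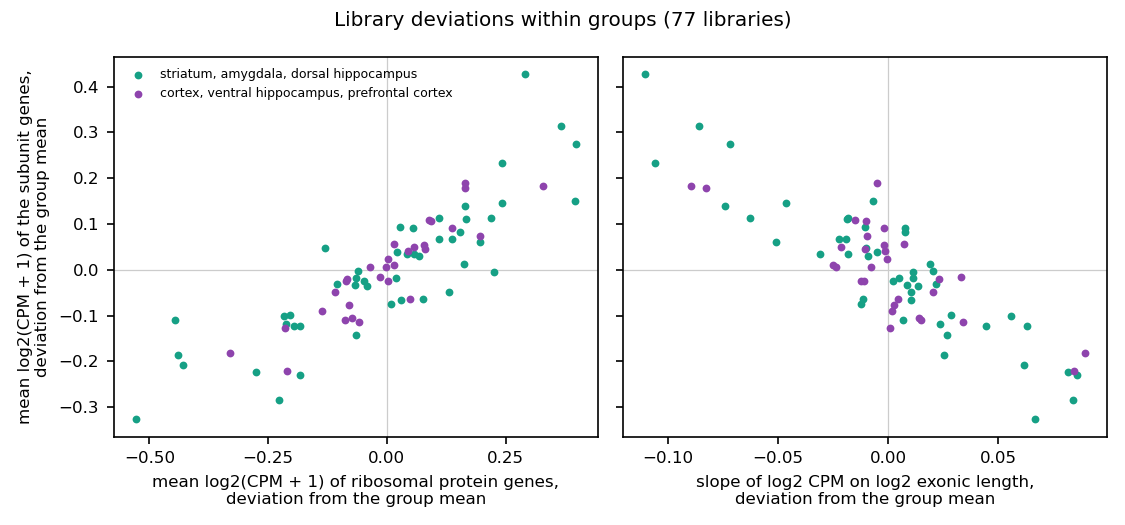
Deviation of each library's subunit mean from its group mean, against the same deviation of ribosomal protein genes (left) and of the slope of log2 CPM on log2 exonic length (right), in log2 units and log2 units per doubling of length. The deviations rise with the ribosomal mean and fall with the slope, with r = 0.86 and -0.87 over 77 libraries.

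Other genes of the pathway were counted in the same fits. Of 45 assembly factors and chain parts outside the symbol rule, such as Ndufab1, Cyc1 and Cycs, 22 were higher and 0 lower in cortex, and 24 lower and 0 higher in prefrontal cortex, with median differences of 0.25 and -0.37. Of 14 nuclear regulators of the pathway, including Ppargc1a, Nrf1, Gabpa and Tfam, 3 were higher and 1 lower in cortex and 2 higher and 2 lower in prefrontal cortex, with medians of -0.02 in both. Of 7 mitochondrially encoded mRNAs tested, 7 were lower in prefrontal cortex and 7 higher in ventral hippocampus. In KO against WT, within sex, over both sexes or between the sexes' KO effects, 0 genes of the assembly, regulator and mitochondrially encoded lists were called by edgeR.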

How the data were processed

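Poly(A) RNA from 7 brain regions of 12 mice was sequenced in 78 libraries. The authors deposited whole-number counts per gene symbol, and per the submitters' processing notes STAR 2.5.2a, SAMtools 1.1, HTSeq 0.6.1, DESeq2 and R 4.0.2 were used with the builds GRCm38 and mm10. The strand setting of the counting and the annotation release are not given in the sources used here. Counts were kept as deposited and fitted with edgeR 4.0.16 in R 4.3.3 (limma 3.58.1): TMM scaling, genes kept by a minimum count of 10 and total of 15, the quasi-likelihood test, and Benjamini-Hochberg adjustment over all genes tested with a threshold of 0.05.

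KO was compared with WT within each sex and region, over both sexes with sex as a term, and as the difference between the sexes. Each region was compared with the mean of the others of its set. Module means used a pseudocount of 1. Lengths, counted over the exons of all annotated transcripts of a gene, and GC content came from GENCODE M21, which matched 80 of the 81 members. Copies were stretches of 97% identity over 75 bases or more. A level of 0 allows up to 3 counts.

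Members and lists were chosen with earlier results of these data known. Members named are Acss2 as a check, the smallest p per region for KO, the 2 largest differences each way per region, the paralogue sets, complex II, the extremes per complex by level and by covariation, and the X-linked members. Pairing by mouse comes from the labels, since regions share animals. Deviations of libraries of the same mouse correlated at a mean of 0.050 (69 pairs) in the deeper set and -0.020 (24 pairs) in the shallower. Within a region, for KO against WT and between the sexes, p-values measure the spread between these mice. The main region fits treated libraries as separate units although regions share animals. Their p-values measure the spread between libraries, and a block for mouse was used only in an alternative. Alternatives were DESeq2 size factors, no filter, length and GC offsets (loess span 0.5), the DESeq2 1.42.0 Wald test, the mouse block, other module summaries and leaving out each mouse. Leaving out the doubtful prefrontal library in the region and sex fits was chosen after seeing the data. Fits were tested on simulated data.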

Additional observations from a re-analysis of the deposited data

Results flagged for a closer look

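In amygdala every KO library lay above every WT library in females and below every WT library in males for 4 module means of log2(CPM + 1). For all 81 members the KO minus WT difference was 0.15 in females and -0.23 in males, a difference of 0.37 between the sexes. For complex I it was 0.14 and -0.24, which differ by 0.38. For complex III it was 0.18 and -0.19, which differ by 0.37. For complex V it was 0.14 and -0.25, which differ by 0.39. The pattern was searched for across the regions, for all members and for each complex, and these 4 means were the ones found. Prefrontal cortex, with 1 male KO library, could not show it. The 4 are not separate results, since within groups complex I varied with complex V at r = 0.95 and with complex III at 0.94. These differences of the means were not tested, and the test of each member's own sex difference in KO effect called 0 of 81.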

How the results depend on the processing

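Direction was followed for the members with the 2 largest differences each way per region and with the smallest KO p per region. None of these turned direction under the alternatives run. For the other members only the counts called each way were compared. As each mouse was left out, the KO minus WT module mean, which has no test, changed sign in female dorsal hippocampus (-0.093 to 0.26), prefrontal cortex (-0.11 to 0.11), ventral striatum (-0.025 to 0.14) and ventral hippocampus (-0.018 to 0.047), and in male cortex (-0.063 to 0.14) and ventral hippocampus (-0.15 to 0.0067). With length and GC offsets, the KO minus WT module mean was -0.13 in male amygdala and 0.17 in female cortex, and prefrontal cortex minus the other regions of its set was -0.28. Median member differences were then -0.11 and 0.12 in the same groups, members called lower were 14 in dorsal hippocampus and 1 in ventral hippocampus, and members called higher in ventral striatum were 13. Without the filter 3 were higher in ventral striatum. With the median over members, the KO minus WT module difference in female ventral hippocampus was 0.073. The DESeq2 Wald test called 32 members between the sexes in amygdala and 1 in dorsal striatum. Leaving out each mouse gave 25 to 40 members higher and 3 to 8 lower in dorsal hippocampus. In dorsal striatum 21 to 35 were then higher and 13 to 19 lower. Leaving out each mouse also gave 0 to 1 lower in ventral hippocampus and 0 to 4 called between the sexes in amygdala. The median member difference was then 0.25 to 0.44 in female cortex and 0.0062 to 0.11 in female ventral hippocampus. The ranges for the other groups stand beside their medians above. The cause of these shifts was not tested. With the replicate block (mouse), 66 members were higher in cortex, 70 lower in prefrontal cortex, 35 higher in dorsal hippocampus and 31 lower in ventral striatum, and no count of region calls moved by over 1.5 times. No paired analysis was possible for KO against WT because the mice of the groups differ. Where a group had 1 library left, that library is assumed to vary like the other groups. Depth limits the shallower set, where 3 counts are 2.44 to 4.76 CPM and 5 members were not tested.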
